A study of Mus musculus with 8 samples.

Results

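GFP+ hematopoietic cluster cells are the cells of the mid-gestation arteries in which budding blood cells and an active Ly6a reporter coincide, and they are described here by the genes on which they stood apart from the 3 other cell groups sorted beside them. Their 2 arrays were set against the 6 other arrays of the series. A gene was taken as separated when its lower GFP+ cluster array lay above every other array, or its higher GFP+ cluster array lay below every other array. Of 19501 genes tested, 2632 (13.5%) lay above and 4182 (21.4%) lay below all 6 other arrays. These shares are descriptions with no test. Most counts of lists below take only the 1354 and 2176 of these genes that also passed a test against each of the 3 other groups.

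All embryos carried the Tg(Ly6a-GFP) transgene, in which regulatory sequence of Ly6a, the gene for the surface antigen Sca-1, drives green fluorescent protein. They came from C57BL/6 x 129S1/SVImJ F1 females mated to transgenic males and were taken at E10.5, and no embryo was otherwise treated. The aorta-gonad-mesonephros region with the umbilical and vitelline arteries was dissected from a pool of 100 embryos. Cluster cells were sorted for CD31, VE-cadherin (VEC), ESAM and Kit, and endothelial cells for the same markers without Kit, each divided by GFP into a positive and a negative gate. The sort gave 30000 GFP+ cluster cells, 130000 GFP- cluster cells, 70000 GFP+ endothelial cells and 300000 GFP- endothelial cells. GFP thus reports the transgene's promoter and not the Ly6a protein itself, and each group is a single sort from pooled animals.

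The RNA of each group was divided into 2 fractions, amplified and hybridised to 1-colour Agilent arrays. The paired arrays of a group therefore share their cells, and p-values here measure only the technical spread between divided RNA. Levels are log2 signal minus the array's 75th percentile, so 0 is a level that 75% of spots do not exceed. Between 55.4% and 64.5% of spots were well above background and 0 were saturated. The 75th percentile of signal ran from 1180.7 to 1476.6 on the GFP+ cluster arrays and from 708.3 to 1099.7 on the other 6. GFP+ cluster RNA occupied the same position on both slides, so array position and cell group cannot be told apart. In bulk samples such as these, fewer cells of a type and less RNA per cell cannot be told apart either.

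Hematopoietic stem and progenitor cells arise in the embryo from specialised endothelium of the large arteries. Endothelial cells turn on the transcription factors Runx1 and Gfi1, lose endothelial genes, round up and collect in clusters on the vessel wall, which still carry endothelial surface proteins. The Ly6a reporter is known to enrich for the cluster cells that can engraft an adult recipient. Interferon and Toll-like receptor signalling, best known from defence against infection, are also known to act on blood emergence in the embryo, which is the theme of the series' title.

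The markers given for the group, Myb, Angpt1 and Hlf, were read first. Hlf, which encodes a PAR bZIP transcription factor found in hematopoietic stem cells, read 0.89 and 0.94 on the GFP+ cluster arrays. It read -1.47 and -1.52 in GFP- cluster cells, -3.19 and -3.16 in GFP+ endothelium, and -4.90 and -4.21 in GFP- endothelium. The groups did not overlap, and the 4 groups fell in that order. Among genes with a symbol that were well above background on all 8 arrays and passed the test against every group, Hlf had the widest gap of all, 2.37 log2 units between its lower GFP+ cluster array and the highest other array. Its log2 difference was 2.41 ± 0.21 (SE, n = 2 arrays against 2, limma adjusted p = 0.000692) from GFP- cluster cells, 4.09 ± 0.21 (adjusted p = 0.000115) from GFP+ endothelium and 5.47 ± 0.21 (adjusted p = 2.38e-05) from GFP- endothelium.

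Myb encodes a transcription factor needed for definitive blood formation. It read 3.19 and 3.12 in GFP+ cluster cells, against 1.30 and 1.21 in GFP- cluster cells, -1.29 and -1.38 in GFP+ endothelium and -2.26 and -2.18 in GFP- endothelium. Both GFP+ cluster arrays lay more than 1.8 log2 units above every other array, and the difference from GFP- cluster cells was 1.90 ± 0.062 (adjusted p = 3.81e-05). Angpt1 encodes angiopoietin-1, a ligand of the Tie2 receptor that stem cells and supporting cells make. It read 1.88 and 1.76 in GFP+ cluster cells, -0.01 and -0.04 in GFP- cluster cells, -1.22 and -1.27 in GFP+ endothelium and -1.64 and -1.69 in GFP- endothelium. All 3 markers thus ran in the same order over the 4 groups, GFP+ cluster cells first and GFP- endothelium last. They were given as markers of these cells with earlier results of these arrays known, so their order is a description and no independent check of the label. The probes of Hlf (chromosome 11, 90200696 to 90200755), Myb (chromosome 10, 20844736 to 20844795) and Angpt1 (chromosome 15, 42256335 to 42256394) are placed on mouse build mm9.

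**Figure D1:**
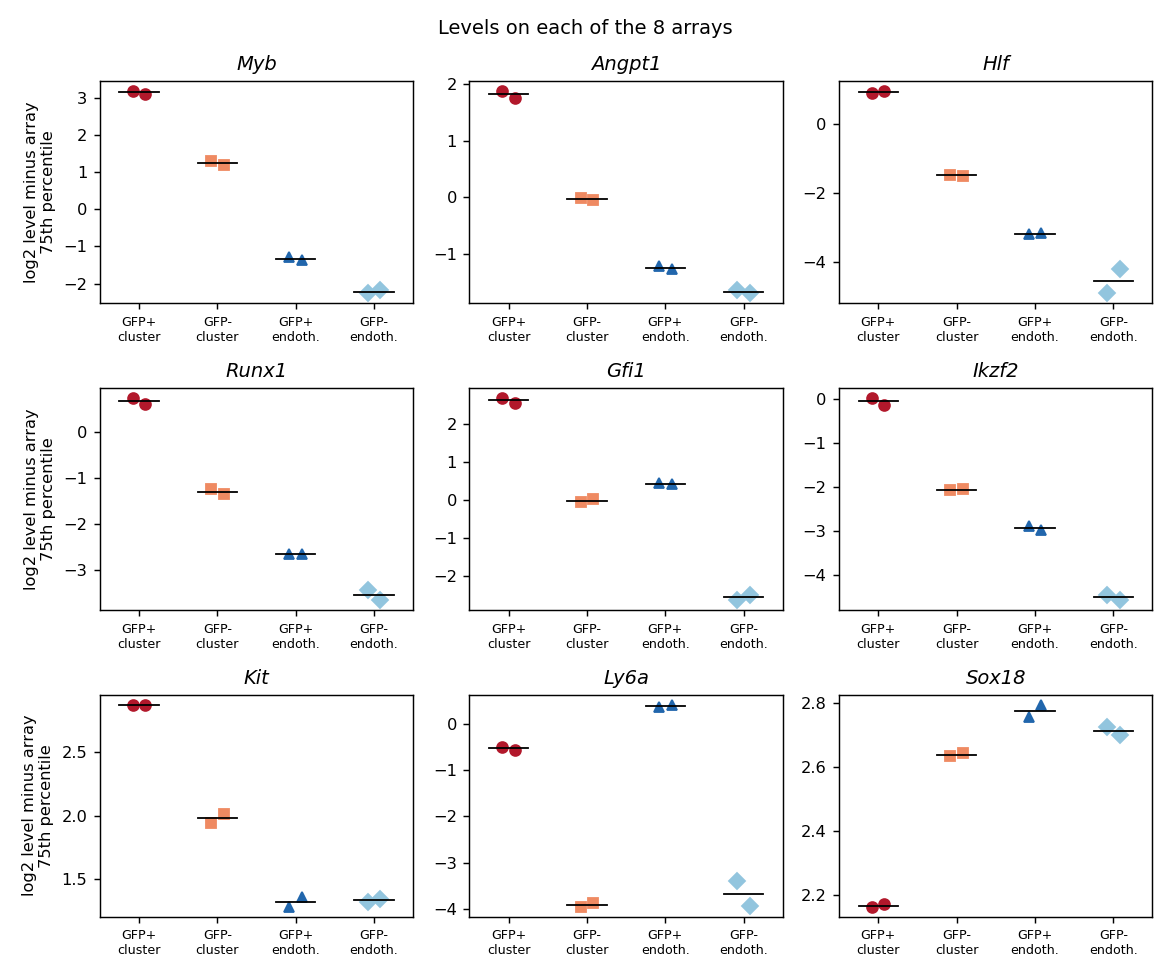
Levels on each of the 8 arrays (vertical axis, log2 signal minus the array's 75th percentile) for 9 genes, by cell group with GFP+ cluster cells at the left; points are arrays and lines are means of 2 arrays. Myb, Angpt1, Hlf, Runx1, Gfi1, Ikzf2 and Kit are highest on both GFP+ cluster arrays, Ly6a is highest in GFP+ endothelium, and Sox18 is lowest in GFP+ cluster cells; each panel has its own scale.

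The sorting genes were described next. The gates used the proteins of Kit, Cdh5, Pecam1 and Esam, so the levels of these genes check the labels and are no finding. Ly6a protein was not gated on, and the RNA of Ly6a is tied to the gates only through the promoter that drives GFP. Kit read 2.87 and 2.88 in GFP+ cluster cells, 1.94 and 2.02 in GFP- cluster cells, 1.28 and 1.36 in GFP+ endothelium and 1.32 and 1.35 in GFP- endothelium. Ly6a was not highest in GFP+ cluster cells. It read -0.48 and -0.57 there, -3.95 and -3.87 in GFP- cluster cells, 0.37 and 0.42 in GFP+ endothelium, and -3.40 and -3.95 in GFP- endothelium, so both GFP+ groups lay apart from both GFP- groups. Cdh5, which encodes VE-cadherin, read 3.73 and 3.67 in GFP+ cluster cells, still far above the 75th percentile, but below its 4.07 to 4.40 on the 6 other arrays. Pecam1 (CD31) and Esam did not pass against GFP- cluster cells (adjusted p = 0.0756 and 0.388).

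Against each group in turn, limma called 6407 of the 19501 genes (32.9%) different from GFP- cluster cells at an adjusted p under 0.05, 11.8% higher and 21% lower. It called 9825 (50.4%; 26.1% higher, 24.3% lower) different from GFP+ endothelium and 9867 (50.6%; 19.2% higher, 31.4% lower) from GFP- endothelium. Against the mean of the other 3 groups 47.2% were called, 19.1% higher and 28.1% lower. A gene was then counted as different from all 3 only when each of the 3 differences passed with the same sign. In GFP+ cluster cells 1354 genes (6.94%) were higher and 2176 genes (11.2%) were lower than in all 3 other groups. All of these were also separated from the 6 other arrays. Within each slide, 16.9% of genes lay above and 25.1% below the 3 other arrays on both slides. The 3 comparisons share the GFP+ cluster arrays, so their calls are not independent of each other. Without replicate 1 or 2 of GFP- cluster cells, 3682 and 4074 genes differed from that group; without replicate 1, 1418 were lower than in all 3; and without replicate 1 of GFP+ cluster cells, 4054 lay above all other arrays. With normexp, which subtracts background by a fitted model, 39 genes were called higher and 2 lower than in all 3 groups. On that setting 1247 genes lay above and 2467 below all 6 other arrays.

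The higher genes differed more widely than the lower ones. Of the 19501 genes tested, 347 (1.78%) lay at least 1 log2 unit above the highest other array and 55 (0.282%) lay at least 1 log2 unit below the lowest. Of these 347 and 55 genes, 221 and 8 were well above background on all 8 arrays. At least 2-fold differences from each of the 3 groups were seen in 405 of the 1354 higher genes and 111 of the 2176 lower genes. GFP- cluster cells, by the same reading against their own 6 other arrays, had 65 genes above and 4 below by 1 log2 unit. The corresponding counts were 68 and 233 in GFP+ endothelium, and 6 and 69 in GFP- endothelium. These counts are descriptions over technical replicates and no test between groups was made.

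The next group in order differed with direction. For 852 of the 1354 higher genes (62.9%) the highest other array was a GFP- cluster array, for 404 (29.8%) it was GFP+ endothelium and for 98 (7.24%) GFP- endothelium. For the 2176 lower genes the lowest other array belonged to GFP- cluster cells in 951 (43.7%), to GFP+ endothelium in 938 (43.1%) and to GFP- endothelium in 287 (13.2%). At the edge of the separation, Ccdc77 and Zfp369 lay above by 7e-06 and 5.2e-05 log2 units, and Sh2d4b and Aftph missed it by -0.0003 each. On the lower side Cdk2ap1 and Cast were inside by 2.1e-05 and 0.00028, while Atg3 and Tmem164 were outside by -8.6e-05 and -0.00016.

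Transcription factors of stem cells and of blood emergence were mostly higher or did not pass. Of 39 tested, 18 (46.2%) were higher and 4 (10.3%) lower than in all 3 groups, beside 6.94% and 11.2% of all genes. The median log2 difference was 0.45 from the mean of the other 3 groups, where the median of all genes was -0.04. With normexp 1 of the 39 was called higher and the median was 0.42. On that setting 16 of the 39 lay above all other arrays, beside 1247 of all 19501 genes. Runx1, the factor that starts the transition from endothelium to blood, read 0.74 and 0.60 in GFP+ cluster cells, -1.25 and -1.34 in GFP- cluster cells, -2.64 and -2.64 in GFP+ endothelium and -3.42 and -3.64 in GFP- endothelium. Its difference from GFP- cluster cells was 1.96 ± 0.090 (adjusted p = 8.6e-05). The order of the groups was that of Hlf and Myb.

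Gfi1, a repressor that silences endothelial genes in emerging blood cells, kept another order. It read 2.67 and 2.55 in GFP+ cluster cells, -0.05 and 0.01 in GFP- cluster cells, 0.44 and 0.41 in GFP+ endothelium and -2.62 and -2.48 in GFP- endothelium. GFP+ endothelium was thus the nearest group, 2.18 ± 0.070 below on the log2 scale (adjusted p = 2.92e-05), and GFP- cluster cells lay 2.63 ± 0.070 below (adjusted p = 2.39e-05). Ikzf2, which encodes the Ikaros family factor Helios, read 0.03 and -0.13 in GFP+ cluster cells against -2.07 and -2.05 in GFP- cluster cells, -2.88 and -2.97 in GFP+ endothelium and -4.44 and -4.55 in GFP- endothelium.

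Other members differed by a wide range of sizes. Spi1, which encodes the myeloid and stem cell factor PU.1, was higher by 1.92, 3.29 and 3.54 than in GFP- cluster cells, GFP+ endothelium and GFP- endothelium in turn. Gata2, which stem cell formation requires, was higher by only 0.50, 0.43 and 0.65, and Hmga2 by 0.28, 0.61 and 0.44. The 4 factors that were lower are Sox17, Sox18 and Sox7, the SoxF factors of endothelium, and Ldb1, a bridging protein of blood transcription complexes. Sox18 read 2.16 and 2.17 in GFP+ cluster cells, while the 6 other arrays lay between 2.63 and 2.79. The other 17 factors, among them Gata1, Tal1, Lmo2, Erg, Fli1 and Mecom, did not pass in the same direction against all 3 groups.

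Surface and signalling genes of stem cells were read next. Of 37 tested, 16 (43.2%) were higher and 6 (16.2%) lower than in all 3 groups, beside 6.94% and 11.2% of all genes. Adgrg1, an adhesion receptor (GPR56) of stem cells, read 3.75 and 3.59 in GFP+ cluster cells against 1.65 and 1.62 in GFP- cluster cells, 0.49 and 0.39 in GFP+ endothelium and -0.45 and -0.45 in GFP- endothelium. Its GFP+ cluster arrays stood above every other array by more than 1.6 log2 units. Flt3, the receptor of FLT3 ligand on multipotent progenitors, read 0.24 and 0.16 in GFP+ cluster cells and -1.87 and -1.74 in GFP- cluster cells. Its paired endothelial arrays differed from each other by over 1 log2 unit (-3.83 and -5.01 in GFP+ endothelium, -4.84 and -3.65 in GFP- endothelium). The SE of its differences was 0.50 accordingly. The 6 lower genes were Cxcr4, the receptor of the chemokine CXCL12; Emcn, Robo4 and Prom1, known from endothelium among other tissues; Hoxb4; and Ndn.

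Of 44 tested genes of the cytoskeleton, surface and signalling of most blood cells, 36 (81.8%) were higher than in all 3 groups, beside 6.94% of all genes. The other 8 were not called, and 2 of the 44 had been tested only through GFP+ cluster cells. The median difference from the mean of the other groups was 1.83. Coro1a, which encodes an actin-binding protein of leukocytes, read 4.05 and 4.01 in GFP+ cluster cells. It read 2.05 and 2.09 in GFP- cluster cells, 0.60 and 0.60 in GFP+ endothelium, and 0.43 and 0.31 in GFP- endothelium. Dok2, an adaptor of immune receptor signalling, read 3.50 and 3.65 in GFP+ cluster cells, 1.35 and 1.46 in GFP- cluster cells, 1.14 and 1.19 in GFP+ endothelium and -0.17 and -0.12 in GFP- endothelium. The same separation held for Spn (the sialomucin CD43), Ptpn6 (the phosphatase SHP-1) and the myosins Myo1g and Myo1f, with gaps of 2.01, 1.95, 2.09 and 1.93. Slco4a1, an organic anion transporter, and Agap2 lay apart by 2.18 and 1.97.

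**Figure D2:**
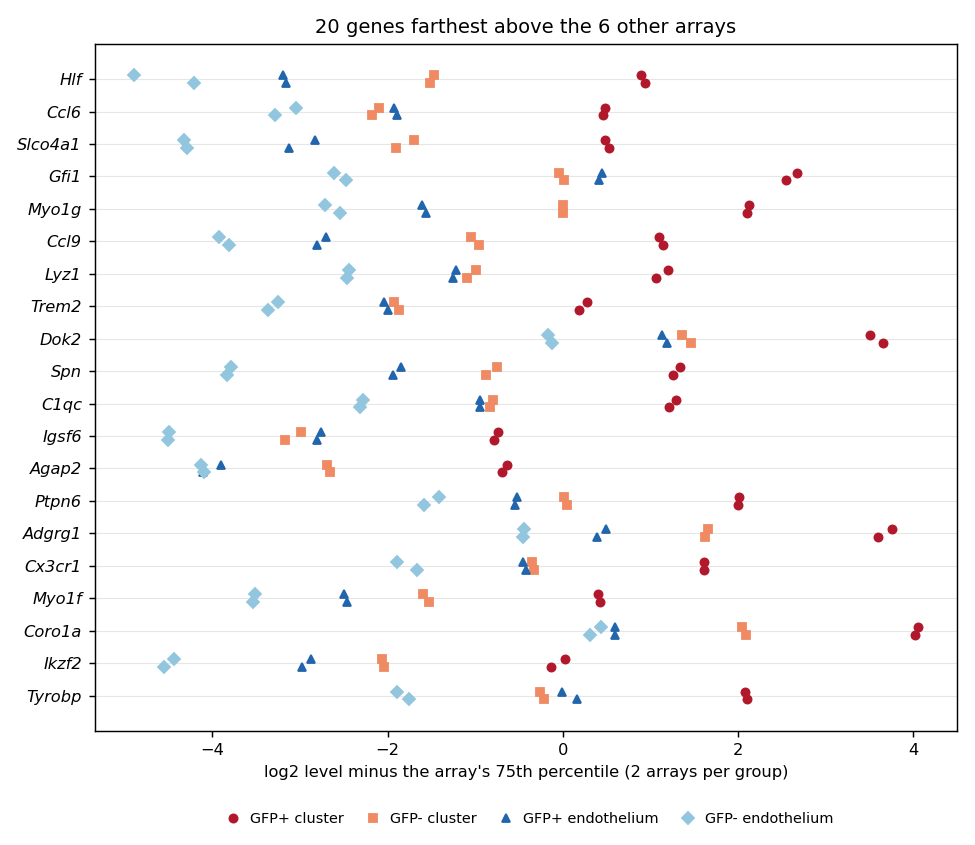
Among genes well above background on all 8 arrays and called against all 3 groups, the 20 with the widest gaps above the 6 other arrays (rows, widest at the top); the horizontal axis is log2 signal minus the array's 75th percentile and each point is an array. The GFP+ cluster arrays lie at the right in every row, 2.37 log2 units clear of the next array for Hlf; the next group is GFP- cluster cells in most rows and GFP+ endothelium in others, Gfi1 among them.

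By likeness of pattern over the 8 arrays, the genes closest to Hlf were Myo1g, Arhgap9, Ccl9, Celf2 and Jade2, with Pearson r of 0.9976, 0.9973, 0.9966, 0.9961 and 0.9958. The r describes 8 arrays of 4 groups that share their RNA in pairs, and it carries no p. Ccl9, a chemokine, read 1.09 and 1.14 in GFP+ cluster cells and -1.05 and -0.96 in GFP- cluster cells. GFP+ endothelium had -2.71 and -2.80 for it and GFP- endothelium -3.93 and -3.81, which are steps close to those of Hlf. Arhgap9 read 1.23 and 1.15 in GFP+ cluster cells, against -0.52 and -0.60 in GFP- cluster cells, -1.65 and -1.69 in GFP+ endothelium and -2.61 and -2.49 in GFP- endothelium.

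Macrophage and monocyte genes were higher almost throughout. Of 40 tested among 46 on the array, 37 (92.5%, beside 6.94% of all genes) were higher than in all 3 groups and 3 were not called. The median difference from the mean of the others was 2.15, and 5 of the 40 had been tested only because GFP+ cluster cells showed them. C1qc, a chain of complement C1q made by tissue macrophages, read 1.29 and 1.21 in GFP+ cluster cells, -0.80 and -0.83 in GFP- cluster cells, -0.95 and -0.95 in GFP+ endothelium and -2.28 and -2.32 in GFP- endothelium. Csf1r, the receptor of macrophage colony-stimulating factor, read 3.29 and 3.33 in GFP+ cluster cells, 1.38 and 1.58 in GFP- cluster cells, 1.47 and 1.56 in GFP+ endothelium, and 0.55 and 0.51 in GFP- endothelium. For both genes the GFP- cluster and GFP+ endothelium arrays lay close together, unlike the stepwise order of Hlf and Myb.

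The fractalkine receptor Cx3cr1, the lipid receptor Trem2, the signalling adaptor Tyrobp and lysozyme (Lyz1) were higher by 1.95, 2.12, 2.33 and 2.17 than in GFP- cluster cells. Timd4, a receptor for dying cells on resident macrophages, read -1.90 and -1.96 in GFP+ cluster cells, -4.51 and -4.58 in GFP- cluster cells, -4.13 and -4.01 in GFP+ endothelium and -6.13 and -5.53 in GFP- endothelium. It was well above background on 6 of the 8 arrays. Among the list members that were not called were Lyve1, whose difference from GFP- cluster cells was 0.10, and Clec4a3, whose difference was 1.83, and 1 member that lay below all 6 other arrays.

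All 9 defining macrophage markers were called higher in GFP+ cluster cells, and their summed level was 22.4 to 22.5 times the 75th percentile signal there. It was 8.71 to 8.95 in GFP- cluster cells, 9.15 to 9.46 in GFP+ endothelium and 4.25 to 4.34 in GFP- endothelium. The stem cell markers Myb, Angpt1 and Hlf summed to 14 to 14.6 in GFP+ cluster cells, 3.63 to 3.82 in GFP- cluster cells, 0.912 to 0.949 in GFP+ endothelium and 0.564 to 0.584 in GFP- endothelium. The part of macrophage RNA in the differences of blood genes in general, of cytokine receptors, of chemokines and of interferon genes was not tested. With normexp background correction 8 of the 44 blood genes and 2 of the 40 macrophage genes were called higher, and the macrophage median fell to 1.36.

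Genes of granulocytes were less uniform. Of 27 tested, 8 (29.6%, beside 6.94% of all genes) were higher than in all 3 groups and 19 were not called. Of the 27, 1 was tested only through GFP+ cluster cells. With normexp 2 of the 27 were called higher, and the median was 0.015 beside 0.196 without it. Mpo, the granule enzyme myeloperoxidase that early myeloid progenitors also make, read 4.42 and 4.42 in GFP+ cluster cells, 2.86 and 2.92 in GFP- cluster cells, -0.59 and -0.41 in GFP+ endothelium and 0.00 and 0.03 in GFP- endothelium. The clusters thus lay well above both endothelial groups for Mpo, and GFP+ cluster cells lay above GFP- ones. The late neutrophil markers S100a8, S100a9, Camp and Ngp were not well above background in GFP+ cluster cells. The other marker of that set, Ltf, was well above background on both GFP+ cluster arrays (-4.02 and -4.14). It differed by 1.26 from GFP- cluster cells, -0.88 from GFP+ endothelium and 1.15 from GFP- endothelium, and was not called against all 3 groups. Of 11 mast cell and basophil genes 3 (27.3%) were higher, the leukotriene genes Alox5 and Alox5ap and the prostaglandin synthase gene Hpgds. Hpgds was tested only because GFP+ cluster cells showed it. Of the mast cell markers, the receptor chains Fcer1a and Ms4a2 were not well above background in GFP+ cluster cells. Hdc was well above background on both GFP+ cluster arrays and Cpa3 on 1, and neither was called against all 3 groups.

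The theme of inflammatory signalling was read by a list of genes that interferons induce. Of 69 tested among 80 on the array, 4 were tested only through GFP+ cluster cells. In all, 30 (43.5%) were higher and 2 (2.9%) lower than in all 3 groups, beside 6.94% and 11.2% of all genes, and 37 were neither. The median difference from the mean of the others was 0.62. Lgals9, which encodes galectin-9, read 0.40 and 0.38 in GFP+ cluster cells, -1.64 and -1.58 in GFP- cluster cells, -1.50 and -1.54 in GFP+ endothelium, and -3.56 and -3.70 in GFP- endothelium. Ifi204, a DNA-binding member of the p200 family, read -0.63 and -0.69 in GFP+ cluster cells, -2.74 and -2.64 in GFP- cluster cells, -2.41 and -2.48 in GFP+ endothelium, and -3.99 and -4.11 in GFP- endothelium. In both genes GFP+ endothelium was the next group and lay slightly above GFP- cluster cells.

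For 21 of the 30 higher interferon genes the next group was GFP+ endothelium, and for the other 9 it was GFP- cluster cells, whereas among all 1354 higher genes GFP+ endothelium was next in 29.8%. The list's median difference was 0.28 from GFP+ endothelium, 0.77 from GFP- cluster cells and 0.96 from GFP- endothelium. The immunoproteasome subunit genes Psmb8 and Psmb9 were higher by 1.50 and 1.75 than in GFP- cluster cells, and the class I molecule H2-K1 by 1.35. The antiviral sensor gene Ifih1 differed by 1.01 from GFP- cluster cells and 0.67 from GFP+ endothelium, and the immunity-related GTPase genes Irgm1 and Irgm2 by 1.08 and 1.10 from GFP- cluster cells. Isg15, Ifit3, Usp18 and Stat2, which are also classical interferon targets, were not called against all 3 groups.

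Rsad2, which encodes the antiviral protein viperin, and Cmpk2, the gene beside it on chromosome 12, were lower. Rsad2 read -1.15 and -1.16 in GFP+ cluster cells, while the 6 other arrays lay between -0.61 and -0.28. Cmpk2, a mitochondrial nucleotide kinase, read -2.35 and -2.49 in GFP+ cluster cells against -1.58 and -1.54 in GFP- cluster cells, -1.76 and -1.78 in GFP+ endothelium and -1.57 and -1.60 in GFP- endothelium. Both are interferon targets by textbook description, so the list did not differ one way throughout. With normexp background correction the list's median fell to 0.23 and 2 of 69 members were called higher.

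The start-site sequences of the interferon genes are shown because the list is defined by a response whose DNA element can be read. RefSeq (GRCm38.p6) windows of 250 bases before to 50 after a gene's start were searched on both strands for the interferon-stimulated response element, written as GAAA, any 2 bases and GAAA. It was present in 11 of the 23 higher interferon genes with a window (47.8%), in 3.99% of all 27025 genes with a window and in 3.58% of the 11661 tested. It stood in 6.55% of the 931 genes called higher and in 2.13% of the 1456 called lower. The list was chosen as genes that interferons induce, and its members that were not called were not counted. The 47.8% therefore cannot tell the higher members from the rest of the list. Of the 5 higher list members with the widest gaps and a window, and both lower members, 4 held the letters, and these windows follow with the matched letters in capitals. The windows lie at chr11:78984875-78985174 (minus strand) for Lgals9, chr1:173942443-173942742 (minus) for the second start of Ifi203, chr5:120907476-120907775 (minus) for Oas1a and chr12:26456403-26456702 (minus) for Rsad2.
Lgals9: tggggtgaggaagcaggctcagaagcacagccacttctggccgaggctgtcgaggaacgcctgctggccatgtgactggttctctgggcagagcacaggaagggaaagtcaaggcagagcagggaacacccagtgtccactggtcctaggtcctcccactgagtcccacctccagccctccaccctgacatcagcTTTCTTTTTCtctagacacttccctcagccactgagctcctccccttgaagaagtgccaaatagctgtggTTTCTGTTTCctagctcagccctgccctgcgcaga
Ifi203: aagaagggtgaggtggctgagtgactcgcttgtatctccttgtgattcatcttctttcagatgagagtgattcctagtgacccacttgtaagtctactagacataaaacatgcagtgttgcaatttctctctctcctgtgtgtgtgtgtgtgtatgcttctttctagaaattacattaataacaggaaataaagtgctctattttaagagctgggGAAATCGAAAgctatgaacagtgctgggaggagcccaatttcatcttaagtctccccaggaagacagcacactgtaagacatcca
Oas1a: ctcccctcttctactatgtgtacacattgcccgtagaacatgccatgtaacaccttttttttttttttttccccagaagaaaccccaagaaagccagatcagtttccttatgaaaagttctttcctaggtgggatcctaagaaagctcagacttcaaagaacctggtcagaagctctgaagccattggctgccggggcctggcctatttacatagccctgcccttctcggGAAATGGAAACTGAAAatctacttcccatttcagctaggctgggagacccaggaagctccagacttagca
Rsad2: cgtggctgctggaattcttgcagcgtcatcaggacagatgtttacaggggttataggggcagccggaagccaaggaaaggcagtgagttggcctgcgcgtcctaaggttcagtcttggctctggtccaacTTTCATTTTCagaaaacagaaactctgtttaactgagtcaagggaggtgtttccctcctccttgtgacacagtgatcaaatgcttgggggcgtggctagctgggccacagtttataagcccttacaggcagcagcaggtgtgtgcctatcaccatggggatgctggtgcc
Lgals9 and Oas1a each hold 2 matches, those of Oas1a overlapping, and Ifi203 and Rsad2 hold 1. Rsad2, which was lower in GFP+ cluster cells, thus carries the same letters as the higher genes. The other window of Ifi203 and those of Cd274, Psmb8 and Cmpk2 hold none, which says only that these letters are not in those windows. A match is a description of letters and not a bound site.

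Other searched letters were spread differently. The STAT element TTCNNNGAA was present in 10 of the 23 higher interferon genes (43.5%) and in 10.3% of genes called higher. It stood in 9.55% of all genes with a window and in 8.48% of those tested. List members that were not called were not counted here either. The PU.1 letters GAGGAAGT stood in 8.16% of genes called higher, in 3.02% of those called lower, in 3.69% of all and in 3.62% of those tested. The RUNX letters TGTGGT stood in 20.2% of genes called higher, 12.8% of genes called lower, 18.9% of all and 15.4% of those tested. The windows were not filtered for overlap between elements, and these shares carry no test.

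Interferon receptors and their signal transducers were mixed. Of 26 tested, 7 (26.9%, beside 6.94% of all genes) were higher and 3 (11.5%) lower, and the lower share is near the 11.2% of all genes. Stat4, a transducer of interleukin-12 and type I interferon signals, read 0.22 and 0.30 in GFP+ cluster cells, -1.77 and -1.72 in GFP- cluster cells, -1.36 and -1.41 in GFP+ endothelium and -3.02 and -2.92 in GFP- endothelium. The cytosolic DNA sensor Cgas was higher than GFP- cluster cells by 1.19, and the interferon regulatory factors Irf5 and Irf8 by 1.92 and 0.80. The lower genes code for receptor chains and a receptor kinase. Ifngr2, a chain of the interferon gamma receptor, differed by -0.34 from GFP- cluster cells, -0.33 from GFP+ endothelium and -0.43 from GFP- endothelium. Ifnar1, a chain of the type I receptor, differed by -0.30, -0.34 and -0.30 from the same groups, although another of its probes had the opposite sign, and the kinase gene Tyk2 by -0.20, -0.53 and -0.46. The differences of these 3 genes were far smaller than those of the higher transducers. With normexp 0 of the 26 were called higher and 0 lower, and the median was 0.12. On that setting 9 lay above all other arrays, beside 1247 of all 19501 genes.

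Genes of Toll-like receptor, NF-kB and tumor necrosis factor signalling gave 17 (33.3%) higher and 2 (3.92%) lower of 51 tested, beside 6.94% and 11.2% of all genes. Of the 51, 2 were tested only through GFP+ cluster cells. With normexp 0 of the 51 were called higher and the median was 0.10. On that setting 7 lay above all other arrays, beside 1247 of all 19501 genes. Casp1, the protease of the inflammasome, read -1.09 and -1.04 in GFP+ cluster cells, -3.01 and -2.88 in GFP- cluster cells, -2.79 and -2.24 in GFP+ endothelium and -4.05 and -3.91 in GFP- endothelium. Ltb, which encodes the cytokine lymphotoxin beta, was higher than GFP- cluster cells by 1.38, and Irak3, an inhibitor of Toll-like receptor signals, by 2.22. Cd40 and Nfkb2, a receptor and a subunit of the non-canonical NF-kB pathway, were lower, by -0.36 and -0.28 in fitted difference from GFP- cluster cells. Cytokine receptors gave 14 (43.8%) higher and 2 (6.25%) lower of 32. With normexp 1 of the 32 was called higher, 11 lay above all other arrays and the median was 0.22. Il6ra, the ligand-binding chain of the interleukin-6 receptor, read 0.68 and 0.56 in GFP+ cluster cells, against -1.23 and -1.42 in GFP- cluster cells, -1.71 and -1.67 in GFP+ endothelium and -2.90 and -3.11 in GFP- endothelium.

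Chemokines and migration receptors gave 14 (38.9%, beside 6.94% of all genes) higher and 4 lower of 36, of which 4 were tested only through GFP+ cluster cells. The lower share of 11.1% is near that of all genes (11.2%). Ccl6, a chemokine of myeloid cells, read 0.48 and 0.46 in GFP+ cluster cells, -2.10 and -2.18 in GFP- cluster cells, -1.92 and -1.89 in GFP+ endothelium and -3.05 and -3.28 in GFP- endothelium. The 4 lower genes were Cxcl12, its receptor Cxcr4, and the scavenging receptors Ackr3 and Ackr2, of which Ackr2 had another probe of opposite sign and turned to 0.32 with the mean of its probes. Cxcl12 read 0.37 and 0.43 in GFP+ cluster cells, 1.12 and 1.20 in GFP- cluster cells, 1.44 and 1.47 in GFP+ endothelium and 1.66 and 1.74 in GFP- endothelium. The list's median of 0.61 turned to -0.04 with normexp background correction.

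**Figure D3:**
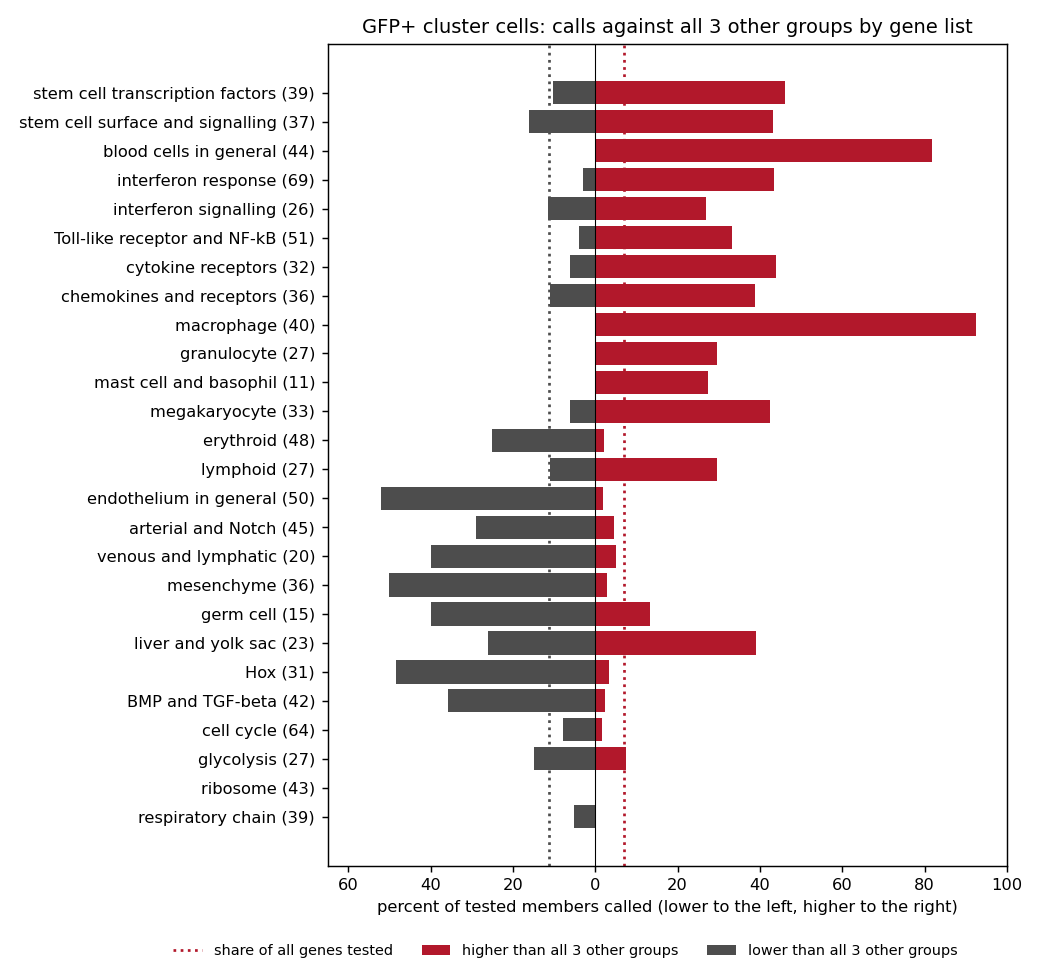
Percent of the tested members of each gene list (rows, number tested in brackets) that were higher (right, red) or lower (left, grey) in GFP+ cluster cells than in all 3 other groups; dotted lines give the same shares over all 19501 genes, 6.94% higher and 11.2% lower. Macrophage genes (37 of 40) and genes of blood cells in general (36 of 44) reach farthest right, and endothelial (26 of 50), mesenchymal (18 of 36) and Hox genes (15 of 31) farthest left.

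Among named genes well above background on all 8 arrays, the one farthest below all others was Slc38a5, an amino acid transporter that red cell precursors express strongly. It read -2.04 and -2.08 in GFP+ cluster cells, 1.94 and 1.91 in GFP- cluster cells, -0.21 and -0.14 in GFP+ endothelium and 0.04 and 0.07 in GFP- endothelium. Its gap was 1.84 log2 units, and its difference from GFP- cluster cells was -3.99 ± 0.046 (adjusted p = 5.77e-06). Of 48 tested red cell genes 12 (25%, beside 11.2% of all genes) were lower than in all 3 groups. In the other direction 1 (2.08%, beside 6.94%) was higher, Nfe2, a factor shared with platelet precursors. Hbb-b2, a beta globin, read -1.13 and -1.20 in GFP+ cluster cells, 2.46 and 2.40 in GFP- cluster cells, -0.41 and -0.46 in GFP+ endothelium, and 1.67 and 1.69 in GFP- endothelium. Both GFP- groups lay far above both GFP+ groups for this gene.

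That division by reporter ran through the red cell list. Its median difference was -1.68 from GFP- cluster cells, -0.79 from GFP- endothelium and 0.02 from GFP+ endothelium. The 7 defining red cell markers summed to 120 times the 75th percentile signal on both GFP+ cluster arrays, 790 to 811 in GFP- cluster cells, 125 to 132 in GFP+ endothelium and 575 to 598 in GFP- endothelium. Epb42 was among those not well above background in GFP+ cluster cells. The part of red cell RNA in the other differences from the GFP- groups was not tested. Platelet and megakaryocyte genes gave 14 (42.4%) higher, such as the ATP receptor P2rx1, and 2 (6.06%) lower, Clec1b and Tubb1, of 33. The shares of all genes are 6.94% and 11.2%, and 1 of the 33 was tested only through GFP+ cluster cells. The 6 defining platelet markers summed to 7.45 to 7.67 in GFP+ cluster cells, 4.80 to 4.87 in GFP- cluster cells, 8.87 to 9.51 in GFP+ endothelium and 18.9 to 19.1 in GFP- endothelium. Of the 6, 1, Itga2b, was called higher than in all 3 groups and 0 were called lower. Pf4 had the highest level of the 6 in each group. It differed by 0.595, -0.356 and -1.444 from GFP- cluster cells, GFP+ endothelium and GFP- endothelium.

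**Figure D4:**
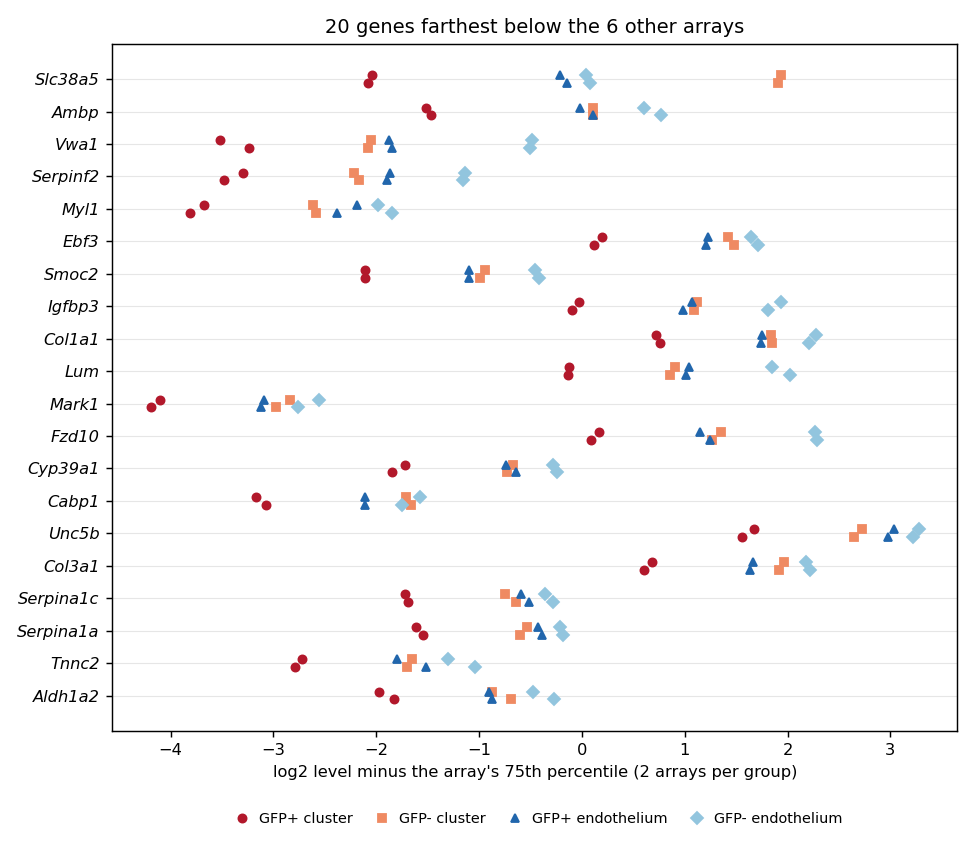
Among genes well above background on all 8 arrays and called against all 3 groups, the 20 with the widest gaps below the 6 other arrays (rows, widest at the top); the horizontal axis is log2 signal minus the array's 75th percentile and each point is an array. The GFP+ cluster arrays lie at the left in every row, 1.84 log2 units below the next array for Slc38a5, whose highest arrays are those of GFP- cluster cells; in Ambp, Vwa1 and Lum the highest are those of GFP- endothelium.

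Endothelial genes were lower in smaller steps. Of 50 tested, 26 (52%, beside 11.2% of all genes) were lower than in all 3 groups and 1, the adhesion molecule gene Selp, was higher. The median difference from the mean of the others was -0.41. With normexp, limma called 0 of the 50 lower and 3 at an unadjusted p under 0.05. No count over all genes at an unadjusted p is given here. On that setting 14 of the 50 lay below all other arrays, beside 2467 of all 19501 genes, and the median was -0.31. Cldn5, a tight junction protein of endothelium, still read 4.74 and 4.81 in GFP+ cluster cells, against 5.35 and 5.50 in GFP- cluster cells, 5.54 and 5.71 in GFP+ endothelium and 5.50 and 5.55 in GFP- endothelium. Apln, the ligand apelin of sprouting endothelium, read 0.11 and 0.19 in GFP+ cluster cells, 1.14 and 1.11 in GFP- cluster cells, 1.30 and 1.20 in GFP+ endothelium and 1.45 and 1.50 in GFP- endothelium. The 6 defining endothelial markers summed to 85.8 to 85.9 in GFP+ cluster cells, 113 to 118 in GFP- cluster cells, 121 to 128 in GFP+ endothelium and 129 to 132 in GFP- endothelium, and all 6 were well above background in GFP+ cluster cells. Of the 6, only Cdh5, Cldn5 and Kdr were called lower than in all 3 groups. Pecam1, Tek and Tie1 differed by -0.25, 0.014 and -0.005 from GFP- cluster cells.

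Of 45 arterial and Notch genes, 13 (28.9%) were lower and 2 (4.44%), Hes6 and Rfng, were higher than in all 3 groups, beside 11.2% and 6.94% of all genes. Unc5b, a netrin receptor of arteries, read 1.68 and 1.55 in GFP+ cluster cells, 2.72 and 2.64 in GFP- cluster cells, 3.03 and 2.98 in GFP+ endothelium and 3.28 and 3.22 in GFP- endothelium. The list's median was -0.65 from GFP+ endothelium but -0.10 from GFP- cluster cells, and for the median of all genes these values were 0.03 and -0.08. Of 20 venous and lymphatic genes 8 (40%) were lower and 1 (5%), Gata2, was higher. The neuropilin Nrp2 read 4.38 on both GFP+ cluster arrays, 5.28 and 5.31 in GFP- cluster cells and 5.11 and 5.10 in GFP- endothelium, and differed by -0.67 from GFP+ endothelium.

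Genes of mesenchyme were lower in 18 of 36 cases (50%, beside 11.2% of all genes), and Dlk1 was higher. With normexp, limma called 0 of the 36 lower and 12 at an unadjusted p under 0.05. On that setting 20 of the 36 lay below all other arrays, beside 2467 of all 19501 genes, and the median was -0.58. Col1a1 and Col3a1 encode fibrillar collagens. Col1a1 read 0.72 and 0.76 in GFP+ cluster cells, 1.84 and 1.85 in GFP- cluster cells, 1.75 and 1.74 in GFP+ endothelium and 2.28 and 2.21 in GFP- endothelium. Col3a1 differed by -1.30 ± 0.049 from GFP- cluster cells (adjusted p = 5.4e-05) and by -1.55 ± 0.049 from GFP- endothelium. Lum, Igfbp3, Smoc2 and the retinoic acid synthase gene Aldh1a2 were also among the 20 farthest below of genes well above background on all 8 arrays. The defining mesenchymal markers summed to 6.37 to 6.47 in GFP+ cluster cells, up to 10.7 in GFP- cluster cells, 10.9 on both arrays of GFP+ endothelium, and 13.3 to 13.4 in GFP- endothelium. Of these 5 markers, Col1a1, Col3a1 and Pdgfra were called lower than in all 3 groups, and Pdgfrb and Acta2 were not called. The part of mesenchymal RNA in the lower genes was not tested.

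Hox genes set position along the body axis, and several act in blood progenitors. Of 31 tested among 39 on the array, 15 (48.4%, beside 11.2% of all genes) were lower than in all 3 groups and 1, Hoxa9, which stem cells depend on, was higher. Hoxa9 read -1.21 and -1.10 in GFP+ cluster cells, -1.68 and -1.61 in GFP- cluster cells, -2.01 and -1.98 in GFP+ endothelium and -2.17 and -2.16 in GFP- endothelium. Hoxc9 ran the other way, with -2.28 and -2.17 in GFP+ cluster cells, -0.64 and -0.65 in GFP- cluster cells, -1.25 and -1.26 in GFP+ endothelium and -0.96 and -0.77 in GFP- endothelium. For 12 of the 15 lower Hox genes the next group was GFP+ endothelium, which was next for 43.1% of all 2176 lower genes. With normexp, limma called 0 of the 31 lower than in all 3 groups and 7 at an unadjusted p under 0.05. On that setting 18 of the 31 lay below all other arrays, beside 2467 of all 19501 genes, and the median was -0.50. The lower genes belonged to all 4 clusters, among them Hoxa3, Hoxa5, Hoxb2 to Hoxb7, Hoxc4 to Hoxc6, Hoxc9, Hoxd3, Hoxd8 and Hoxd9.

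Genes of BMP and TGF-beta signalling, which pattern the embryo and the vessel wall, gave 15 lower (35.7%, beside 11.2% of all genes) and 1 higher, the receptor gene Acvr1b, of 42. The ligand gene Bmp4 read 2.56 and 2.44 in GFP+ cluster cells, 3.26 and 3.44 in GFP- cluster cells, 3.16 and 3.24 in GFP+ endothelium, and 3.04 and 3.04 in GFP- endothelium. Id3, a target of that pathway, read 2.69 and 2.68 in GFP+ cluster cells, and between 3.15 and 3.75 on the other 6 arrays. Both differed in the same direction against each of the 3 groups. With normexp, limma called 0 of the 42 lower and 2 at an unadjusted p under 0.05. On that setting 13 of the 42 lay below all other arrays, beside 2467 of all 19501 genes, and the median was -0.28.

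Genes of cell division, metabolism and ribosomes were read last. Of 64 cell cycle genes 1 (1.56%) was higher, the inhibitor Cdkn1a, and 5 (7.81%) were lower, while 58 were neither. Both shares lay below those of all genes, 6.94% and 11.2%. The cyclin gene Ccnd1 was among the lower ones, at -0.70 from GFP- cluster cells. Against GFP- cluster cells alone, 22 of the 64 were lower and 2 higher, where 21% and 11.8% of all genes were. The list's median from that group was -0.15, beside -0.08 for all genes. The 43 ribosomal and nucleolar genes had a median difference of -0.07 from the mean of the others, against -0.04 for all genes. Of 39 respiratory chain genes 2 (5.13%) were lower, a share below that of all genes. Of 27 glycolysis genes 2 (7.41%) were higher (Hk2 and Hk3) and 4 (14.8%) lower, near the shares of all genes. Read by separation alone, 10 glycolysis genes (37%) and 12 respiratory chain genes (30.8%) lay below all 6 other arrays, against 21.4% of all genes. These counts depended on the scaling. With quantile normalization they were 8 and 5, beside 4056 of all 19501 genes. With normexp they were 4 and 1, beside 2467 of all genes. Of the 39 respiratory chain genes 32 were lower than in GFP- endothelium, where 31.4% of all genes were.

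**Figure D5:**
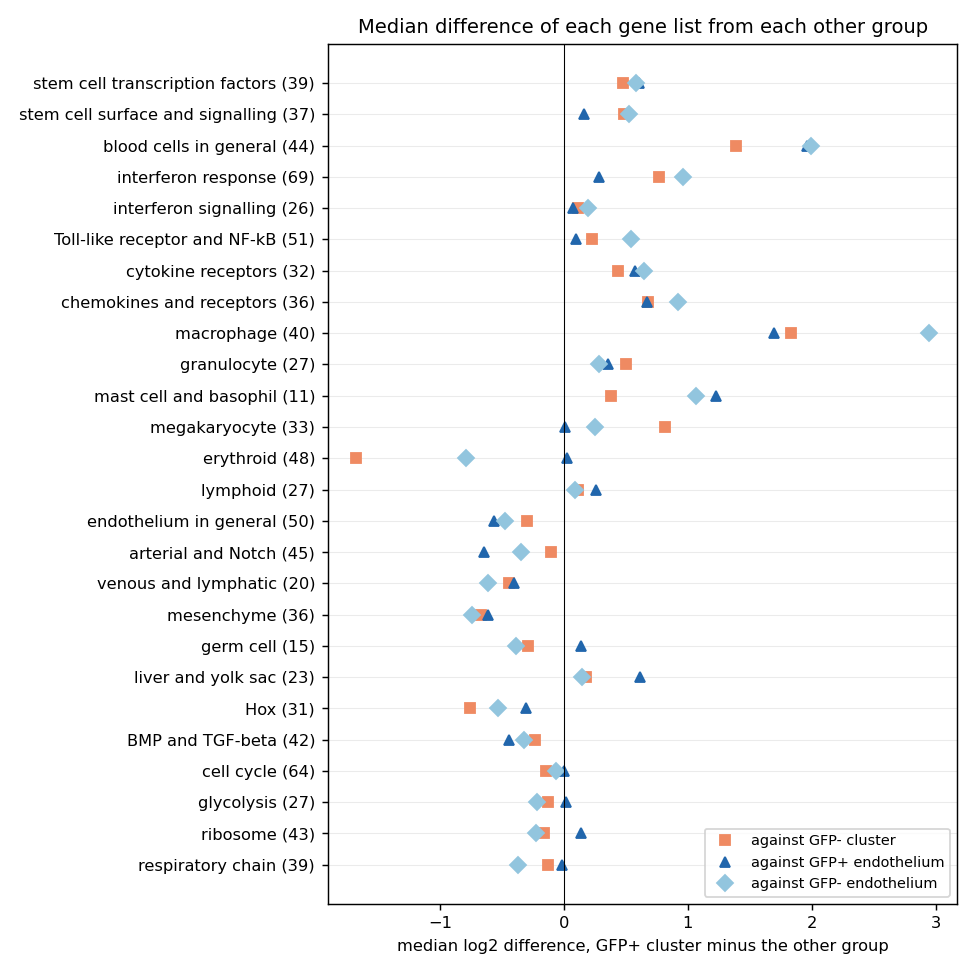
Median log2 difference of each gene list (rows, number tested in brackets), GFP+ cluster cells minus each of the 3 other groups; the vertical line is 0. Macrophage genes lie at 1.83, 1.70 and 2.95 from GFP- cluster cells, GFP+ endothelium and GFP- endothelium, interferon response genes lie closest to GFP+ endothelium (0.28), and red cell genes lie at -1.68 from GFP- cluster cells and 0.02 from GFP+ endothelium.

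Genes at the edge of detection have only bounds. Of the genes above all other arrays, 21 were well above background on both GFP+ cluster arrays and on none of the other 6. Psd4 was at least 3.70-fold higher than in each other group, computed against the lowest signal well above background on each array. The bounds for P2ry14, Aoah and Klrb1c were at least 3.10, 3.02 and 2.97-fold higher, although P2ry14 did not pass against GFP- cluster cells (adjusted p = 0.105). These genes were tested only through GFP+ cluster cells, and the bounds hold only for the scanner's processed signal. With normexp Psd4, P2ry14, Aoah and Klrb1c differed from the mean of the other groups by 0.47, 0.41, 0.43 and 0.32 log2 units (limma adjusted p from 0.909 to 0.917). In the other direction 158 genes were well above background on all 6 other arrays and on neither GFP+ cluster array. Prrx1, a mesenchymal transcription factor, was at least 2.55-fold lower, and the bounds for Colec10, Adamts2 and Chgb were at least 2.52, 2.42 and 2.29-fold lower. With normexp Prrx1, Colec10, Adamts2 and Chgb differed by -0.90, -1.14, -0.93 and -0.99 from the mean of the other groups (limma adjusted p from 0.165 to 0.492).

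The choice of background correction limits how far single calls and list counts can be read. With normexp, 4 of 37 stem cell surface genes, 2 of 33 platelet genes and 1 of 11 mast cell and basophil genes were called higher. For chemokine, lymphoid, germ cell, and liver and yolk sac genes the number called higher was 0. Lower calls were 1 of 48 red cell genes, 0 of 45 arterial and Notch genes and 0 of 20 venous and lymphatic genes. With normexp correction, 49 of 179 named genes kept their direction and their side of the threshold against the mean of the other groups. Myb, Angpt1, Gfi1, C1qc, Csf1r, Kit, Slc38a5 and Hoxc9 passed there, with adjusted p from 0.00287 to 0.0244, whereas Hlf (2.86, adjusted p = 0.0853), Runx1 (2.28, adjusted p = 0.0728), Lgals9 (1.88, adjusted p = 0.122), Col1a1 (-1.05, adjusted p = 0.0597) and Cd274 (0.75, adjusted p = 0.842) did not.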

How the data were processed

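RNA of 4 sorted groups was measured on 8 one-colour arrays. Per the file headers, the deposited intensity values are each spot's mean signal, local background and a background-corrected processed signal; Agilent Feature Extraction 10.10.1.1 is named in the submitters' processing notes. The authors' deposited table of normalized intensity (median 198 in each column, r of log2 values with the scanner files from 0.9974 to 0.9997) is linear and was used as an alternative only; no source used here states how it was normalized. From 43020 non-control spots, flagged outlier spots were left out and spots of a probe averaged (39429 probes). Log2 processed signal minus each array's 75th percentile was taken, and each gene was read by its brightest probe. Names were updated through RefSeq accessions for 26049 probes, 3200 probes had a symbol still in use, and 10180 were left under their file name. A gene was tested when both arrays of some group showed it well above background (19501 genes; 16448 on all 8).

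Limma 3.58.1 in R 4.3.3 fitted 4 group means over 8 arrays, with 4 residual degrees of freedom; tests were two-sided with Benjamini-Hochberg adjustment over all genes at 0.05, and the fit was tested on simulated data. Errors are standard errors. Figures were drawn with matplotlib 3.10.9. A bound sets the bright group against a floor: each array's weakest signal still well above background, or the dim probe's signal if that is larger. Named genes are the 20 widest gaps each way among genes with a symbol detected on all 8 arrays and called against all 3 groups, the 5 largest bounds each way, Myb, Angpt1, Hlf, the sorting genes, up to 4 called members of each list each way (all where 5 or fewer), the genes at the edge of separation and the 5 most like Hlf. Other genes given as examples of a list were chosen after their values were seen. Members and the 27 lists were chosen with earlier results of these data known. Of 41 called named genes with several probes, 5 (Ackr2, Dmtn, Ifnar1, Myl1 and Tgfbr2) had another probe of opposite sign.

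Replicate number equals slide. Replicate differences correlated between groups at 0.139 to 0.36 for all 6 pairs of groups. The numbers were therefore taken as pairing the arrays, and the replicate block was an alternative. The others were the authors' table, normexp correction (offset 50), the mean of a gene's probes, quantile normalization, detection on all 8 arrays or no filter, trend and robust moderation, the compared groups alone, a 2-fold threshold and each array left out. The number of arrays limits the precision. A few genes that the naming rule selects are not reported here.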

Additional observations from a re-analysis of the deposited data

How the results depend on the processing

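Counts are given in the order GFP- cluster, GFP+ endothelium, GFP- endothelium and mean of the others, then genes higher than all 3, lower than all 3, above all 6 arrays and below all 6. Normexp correction gave 127, 137, 411, 334, 39, 2, 1247 and 2467, and a 2-fold (1 log2 unit) threshold 1052, 1924, 1598, 1127, 405, 111, 347 and 55. Normexp also raised the share of calls that were higher to 49.6% from 36.1% against GFP- cluster cells, to 73% from 51.9% against GFP+ endothelium, to 49.9% from 37.9% against GFP- endothelium and to 52.7% from 40.5% against the mean, and moved the median of all genes from GFP- endothelium to -0.27 from -0.07; the cause was not tested. With no filter 3792 genes differed from GFP- cluster cells, 1295 were lower than all 3 and 7213 lay above all 6; more dim genes entered. The compared groups alone left 1357 lower than all 3, with fewer arrays per fit. Leaving out each array gave 3682 to 5738 calls against GFP- cluster cells (3682 and 4074 without replicate 1 and 2 of GFP- cluster cells), 1418 to 1851 lower than all 3 (1418 without replicate 1 of GFP- cluster cells) and 2731 to 4054 above all 6 (4054 without GFP+ cluster replicate 1). With the replicate block, 6878 genes differed from GFP- cluster cells, 10768 from GFP+ endothelium, 10558 from GFP- endothelium and 10098 from the mean, 1464 were higher and 2293 lower than all 3, and no named gene lost its call. The direction turned for Ackr2, to 0.32 with the mean of its probes, for Cdk2ap1, to 0.012 with quantile normalization and the authors' table, and for Sh2d4b, to -0.25 with normexp. The list medians of lymphoid and of liver and yolk sac genes turned to -0.19 and -0.01 with normexp, that of ribosomal genes to 0.03 with quantile normalization, and that of germ cell genes to 0.04 with no filter.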

Other observations

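Liver and yolk sac genes divided in GFP+ cluster cells. Of 23 tested, 9 (39.1%) were higher and 6 (26.1%) lower than in all 3 other groups, beside 6.94% and 11.2% of all genes. Apoe, which encodes a lipoprotein that macrophages also make, read 4.54 and 4.61 in GFP+ cluster cells, 3.36 and 3.45 in GFP- cluster cells, 3.93 and 4.03 in GFP+ endothelium and 3.01 and 2.96 in GFP- endothelium. Alb, which encodes serum albumin, read -3.87 and -3.48 in GFP+ cluster cells, -2.92 and -2.79 in GFP- cluster cells, -1.69 and -1.70 in GFP+ endothelium and -1.98 and -1.89 in GFP- endothelium. The apolipoprotein genes Apoa1, Apob, Apoc1 and Apoc2 were higher, and the fibrinogen genes Fgb and Fgg and the fetal protein gene Afp were lower.

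Lymphoid genes gave 8 (29.6%) higher and 3 (11.1%) lower of 27, beside 6.94% and 11.2% of all genes, and 1 of the 27 was tested only through GFP+ cluster cells. Btk, a kinase of B cell and myeloid receptor signalling, read 0.93 and 0.96 in GFP+ cluster cells, -0.89 and -0.98 in GFP- cluster cells, -2.33 and -2.36 in GFP+ endothelium and -2.30 and -2.21 in GFP- endothelium. Ebf1, a B cell factor also found in mesenchyme, read -2.57 and -2.71 in GFP+ cluster cells and between -1.90 and -1.20 on the other 6 arrays. Rag1 and Rag2, which rearrange the antigen receptor genes of lymphocytes, were not well above background in GFP+ cluster cells. Of 15 primordial germ cell genes 2 (13.3%) were higher, Rex2 and Kit, which was itself a sorting marker, and 6 (40%) were lower. Of 4 germ cell markers, Pou5f1, Dppa3 and Dazl were not well above background in GFP+ cluster cells. The other, Ddx4, was well above background on both arrays there (-3.58 and -3.60). It differed by 1.17 from GFP- cluster cells, 0.36 from GFP+ endothelium and 1.63 from GFP- endothelium, and was not called against all 3 groups.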
